A study of Mus musculus with 42 samples.

Results

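The fed arcuate nucleus (ARC) was compared with the fed dorsomedial hypothalamus (DMH), over all genes of the deposited expression table. The 10 libraries of this comparison, 5 from fed ARC and 5 from fed DMH, were chosen by their labels from the 42 libraries of the series. The tissue came from adult male wild-type C57/BL6 mice with no engineered allele, which fed ad libitum. All nuclei were cut by laser capture from the same brains, so ARC and DMH libraries share mice, but the labels do not say which libraries belong to one mouse, nor that the libraries of a nucleus came from separate mice. All libraries were treated as independent. The p-values of the fit measure the spread within groups, pooled per gene over all 42 libraries, which may be technical in part. Other mice of the series were fasted for 24 hours before capture, and 5 ARC and 4 DMH libraries from those mice are used here as a second, separate set. A captured nucleus holds neurons of many kinds together with glia and vessels, and in such bulk tissue fewer cells of a type and less RNA per cell cannot be told apart.

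The ARC lies at the base of the hypothalamus beside the median eminence, where blood-borne hormones reach neurons readily. It holds the neurons that make neuropeptide Y and agouti-related peptide, which drive feeding, and those that make proopiomelanocortin, the precursor of the satiety peptide alpha-MSH. It also holds neuroendocrine neurons that release growth hormone-releasing hormone and dopamine towards the pituitary. The DMH lies above it, receives input from both ARC populations, and takes part in feeding, body temperature and daily rhythms. Its lateral border meets the lateral hypothalamic area, whose best known neurons make melanin-concentrating hormone or hypocretin (orexin).

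Values are RPKM, the reads of a gene scaled to the length of its exons and to the depth of the library, and differences are of log2(RPKM + 1), ARC minus DMH, with the standard error (SE) of the fit. Every adjusted p is from limma with Benjamini-Hochberg adjustment over the 33579 genes tested, and a gene is called past the threshold at an adjusted p under 0.1. The estimated depth was 4.02 to 4.86 M reads in the 5 fed ARC libraries and 2.94 to 5.05 M in the 5 fed DMH libraries, and the groups overlapped (two-sided exact permutation p = 0.206). The deposited values held 3 batches, read from the table itself, and each held equal numbers of fed ARC and fed DMH libraries: replicate 1 of both nuclei in batch 1, replicates 2 and 3 in batch 2, and replicates 4 and 5 in batch 3. Pearson's r of log2 values between libraries of one nucleus was 0.944 to 0.968, against 0.922 to 0.961 between the nuclei, so the ranges overlapped. With 5 against 5 libraries the smallest two-sided exact permutation p is 0.00794, and every gene whose groups do not overlap has that value.

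Of 33579 genes, 936 (2.79%) differed past the threshold. The 447 genes higher in the ARC (1.33% of those tested) were led by the feeding peptides Pomc, Npy and Agrp and by the retinoic acid binding protein Crabp1. The 489 genes higher in the DMH (1.46%) were led by Pmch, Parpbp, Hcrt and Npvf. Pmch, Hcrt and Npvf encode melanin-concentrating hormone, hypocretin and the RFamide peptide precursor, and Parpbp overlaps Pmch and shares reads with it. The largest differences were few: 19 of the called genes were higher in the ARC by at least 2 on the log2 scale and 16 were higher in the DMH by as much, while the median called difference was 0.71 in ARC-high and -0.73 in DMH-high genes. The median over all genes tested was 0. Those genes include 4747 that held 1 value in all 42 libraries, which cannot be called and which lower the shares over all genes. In 994 genes (2.96%) the 5 ARC values did not overlap the 5 DMH values, 519 with the ARC higher and 475 with the DMH higher, and 628 of the 936 called genes were among them. Leaving out 1 of the 10 libraries at a time gave 749 to 924 called genes. Without replicate 1 of the fed DMH, a library that stands apart for several genes below, 851 genes were called.

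**Figure D1:**
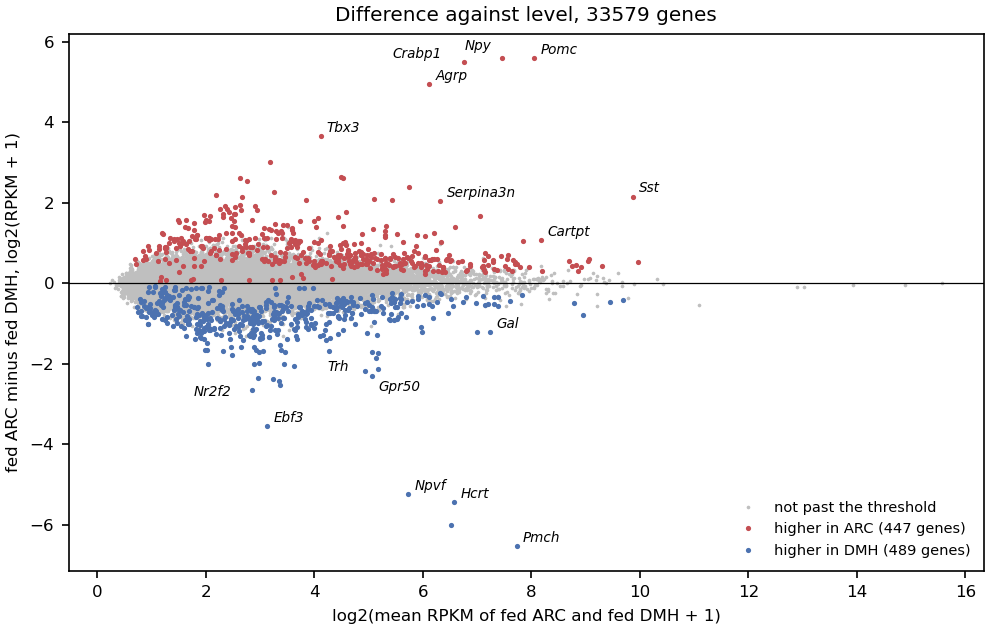
Difference between fed ARC and fed DMH (vertical axis, log2(RPKM + 1), ARC minus DMH) against the level of each gene (horizontal axis, log2 of the mean RPKM of both groups plus 1), for 33579 genes; red points are the 447 genes past the threshold and higher in the ARC, blue points the 489 higher in the DMH, and grey points the rest. The named peptide genes stand far from the main cloud, and Sst combines a high level with a difference of 2.16.

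Pomc, the proopiomelanocortin gene (ENSMUSG00000020660, chromosome 12, 3954951 to 3960642 on GRCm38), was read at 517, 531, 493, 634 and 414 RPKM in the 5 fed ARC libraries and at 11.3, 12.2, 15.4, 10.2 and 3.55 RPKM in the 5 fed DMH libraries. Its means of 518 ± 79.2 and 10.5 ± 4.36 RPKM (SD, n = 5 each) stood 49.1-fold apart, a difference of 5.59 ± 0.30 (SE, limma adjusted p = 2.74e-15). The Npy gene (ENSMUSG00000029819, chromosome 6, 49822710 to 49829507) gave 314, 359, 453, 284 and 317 RPKM in the ARC and 12.7, 3.996, 3.73, 6.098 and 6.703 RPKM in the DMH, a difference of 5.59 ± 0.44 (limma adjusted p = 3.48e-11). Agrp (ENSMUSG00000005705, chromosome 8, 105566698 to 105637393), whose product blocks melanocortin receptors, gave 179, 157, 109.8, 116 and 105 RPKM in the ARC and 5.66, 2.29, 2.07, 2.23 and 5.197 RPKM in the DMH (4.96 ± 0.33, limma adjusted p = 4.88e-13). The lowest ARC library was 26.9-fold above the highest DMH library for Pomc, 22.3-fold for Npy and 18.5-fold for Agrp, so no library came near the other nucleus. Cartpt, the gene of the satiety peptide CART that ARC neurons make together with Pomc, behaved otherwise: it was high in both nuclei, with 401, 438, 352, 460.3 and 283 RPKM in the ARC and 297, 150.1, 159, 237 and 115 RPKM in the DMH. These Cartpt values overlapped, the difference was 1.07 ± 0.29 (limma adjusted p = 0.0442, exact permutation p = 0.0159), and the call was lost in 5 of the 10 fits that each left out 1 library.

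**Figure D2:**
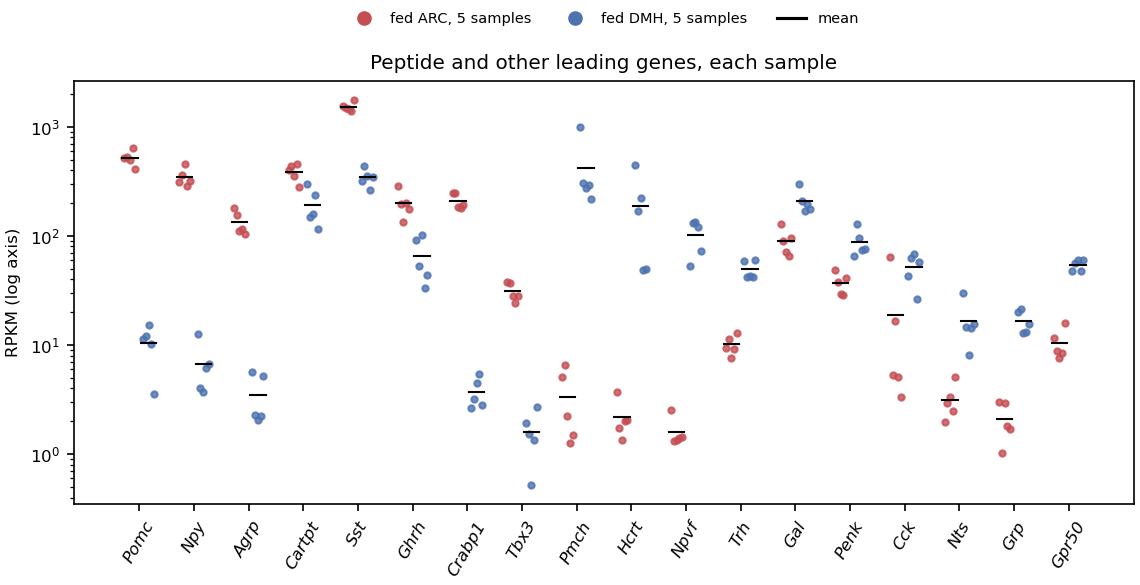
RPKM (vertical axis, logarithmic) of 18 peptide and other leading genes in each of the 5 fed ARC samples (red points) and 5 fed DMH samples (blue points); short black lines are group means. Pomc, Npy, Agrp, Crabp1 and Tbx3 separate with the ARC higher, Pmch, Hcrt and Npvf separate with the DMH higher, and Cartpt and Cck overlap.

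The list of ARC feeding genes held 28 members, all of them tested, and 17 were higher in the ARC, 2 were higher in the DMH and 9 did not pass the test. Over all genes tested, 1.33% were higher in the ARC and 1.46% in the DMH. The list was chosen with earlier results of these data known, so its count is no separate support. Its median difference was 1.10, beside 0 over all genes, and leaving out 1 library at a time gave 14 to 17 members higher in the ARC. The receptors that carry hunger and satiety signals into the ARC made up much of it. All 3 neuropeptide Y receptors of the list were higher in the nucleus that makes the ligand: Npy1r at 37.6 ± 5.302 against 5.48 ± 2.35 RPKM, Npy2r at 36.1 ± 9.68 against 10.1 ± 3.47 RPKM and Npy5r at 9.59 ± 5.89 against 1.15 ± 0.468 RPKM (SD, n = 5). Their differences were 2.64 ± 0.26, 1.77 ± 0.32 and 2.16 ± 0.30 (limma adjusted p = 6.11e-09, 0.000615 and 8.54e-06), and in each the lowest ARC library exceeded the highest DMH library. Of the melanocortin receptors, Mc3r was higher in the ARC (10.9 ± 2.701 against 2.44 ± 1.08 RPKM, 1.82 ± 0.28, limma adjusted p = 7.01e-05). Mc4r gave 4.05, 2.88, 0.668, 0.792 and 1.503 RPKM in the ARC and 1.36, 1.23, 1.49, 1.18 and 1.53 RPKM in the DMH and did not pass the test (limma adjusted p = 1).

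Receptors for hormones from outside the brain followed. The ghrelin receptor Ghsr was read at 9.08, 4.08, 5.92, 5.66 and 7.01 RPKM in the ARC and 2.15, 2.596, 1.73, 1.76 and 2.004 RPKM in the DMH (1.24 ± 0.27, limma adjusted p = 0.00612), and every ARC library exceeded every DMH library. The GLP-1 receptor Glp1r had means of 32.4 ± 4.22 against 12.1 ± 4.74 RPKM (1.43 ± 0.41, limma adjusted p = 0.0629), with no overlap. The leptin receptor Lepr was low in both nuclei, at 3.36, 2.94, 2.74, 3.32 and 3.52 RPKM in the ARC and 1.53, 2.05, 1.53, 1.13 and 2.38 RPKM in the DMH, and its groups did not overlap either (0.63 ± 0.17, limma adjusted p = 0.0489). The calls of Glp1r and Lepr were lost in 6 and 5 of the 10 fits without 1 library, with adjusted p up to 0.176 and 0.161. Stat3, which transmits the leptin signal to the nucleus of the cell, was higher in the ARC (15.7 against 7.92 RPKM, 0.90 ± 0.20). The insulin receptor Insr had means of 11.9 against 14.9 RPKM and did not pass the test. Serpina3n, a serine protease inhibitor, was higher in the ARC by 2.04 ± 0.22, with 191, 119, 108, 131 and 94.3 RPKM in the ARC and 27.5, 30.1, 31.2, 33.8 and 26.3 RPKM in the DMH. Acvr1c, the activin receptor ALK7, and Corin, a protease that activates natriuretic peptides, were higher in the ARC by 1.73 ± 0.15 and 1.57 ± 0.25.

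Both members of the list that were higher in the DMH act on peptide signalling. Htr2c, the serotonin receptor through which serotonin reaches melanocortin neurons, was read at 1.52, 2.96, 1.95, 2.31 and 2.01 RPKM in the ARC and 8.62, 7.88, 10.2, 6.02 and 9.76 RPKM in the DMH (-1.59 ± 0.23, limma adjusted p = 2.48e-05). The prohormone convertases went in opposite directions: Pcsk2 was higher in the DMH (17.2 ± 0.645 against 28.2 ± 5.29 RPKM, -0.66 ± 0.11) and Pcsk1 in the ARC (18.5 ± 6.37 against 9.36 ± 1.96 RPKM, 0.87 ± 0.21), neither with overlap. Of the 17 granin and secretory granule genes tested, 3 were higher in the ARC (1 without DMH replicate 5) and 2 in the DMH (1 without ARC replicate 1 or DMH replicate 4), beside 1.33% and 1.46% over all genes tested. The granins Chga, Chgb and Scg2, at means of 49.6 against 46.9, 309 against 275 and 519.8 against 484 RPKM in ARC and DMH, did not pass the test.

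Neuroendocrine and dopamine genes of the ARC formed the second list. Of 23 listed, 22 passed the filter on low values (Kiss1 did not). Of these, 11 were higher in the ARC and 1, Gal, in the DMH, beside 1.33% and 1.46% over all genes tested. The median difference was 1.16, and this list too was chosen with earlier results known. Crabp1 (ENSMUSG00000032291, chromosome 9, 54764748 to 54773110), a cytosolic carrier of retinoic acid, gave 245, 246, 186, 180.4 and 193 RPKM in the ARC and 2.65, 3.204, 4.51, 5.42 and 2.82 RPKM in the DMH (5.50 ± 0.31, limma adjusted p = 3.97e-15), a gap of 33.3-fold between the lowest ARC and the highest DMH library. Sst, the somatostatin gene, was the most abundant peptide transcript of the list: its ARC libraries held 1539, 1495, 1448, 1382 and 1744 RPKM and its DMH libraries 319, 439, 354, 264 and 345 RPKM (2.16 ± 0.23, limma adjusted p = 6.8e-08). Ghrh, the growth hormone-releasing hormone gene, gave 286, 196, 135, 199 and 176 RPKM in the ARC and 92.5, 53.3, 102, 33.04 and 43.8 RPKM in the DMH (1.69 ± 0.43, limma adjusted p = 0.0276). Without DMH replicate 4 the Ghrh call was lost (adjusted p = 0.105), and with all libraries no DMH value reached the lowest ARC value.

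Among dopamine genes the result differed by gene. The dopamine transporter Slc6a3, which marks the dopamine neurons of this region, was higher in the ARC (6.02, 5.76, 4.17, 5.02 and 3.24 RPKM against 2.01, 1.24, 0.411, 0.752 and 0.908 RPKM, 1.52 ± 0.19, limma adjusted p = 1.55e-06). Nr4a2, a nuclear receptor, was higher too (8.15 ± 3.05 against 1.45 ± 0.894 RPKM). Tyrosine hydroxylase (Th), the rate-limiting enzyme of dopamine synthesis, gave 39.1, 13.1, 22.7, 28.5 and 25.2 RPKM in the ARC and 17.1, 13.4, 13.8, 14.8 and 15.7 RPKM in the DMH, and the groups overlapped (limma adjusted p = 0.395). Ddc and Slc18a2, the next enzyme and the vesicular transporter, did not pass the test either, at ARC and DMH means of 13.96 against 9.62 RPKM and of 16.01 against 13.7 RPKM.

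The receptor genes Esr1, Pgr and Prlr were higher in the ARC. The estrogen receptor Esr1 was read at 7.86, 7.21, 5.27, 9.03 and 7.35 RPKM in the ARC and 1.65, 2.02, 1.45, 1.73 and 1.62 RPKM in the DMH (1.62 ± 0.15, limma adjusted p = 2.46e-09). The prolactin receptor Prlr (16.4 ± 2.25 against 5.73 ± 1.22 RPKM, 1.37 ± 0.14) and the progesterone receptor Pgr (13.9 ± 4.05 against 5.25 ± 1.72 RPKM, 1.25 ± 0.30) separated without overlap. The kisspeptin neuron peptides Tac2 and Pdyn did not pass the test, and Tac2 gave 183, 114, 88.1, 85.3 and 61.5 RPKM in the ARC against 70.1, 46.2, 45.8, 39.8 and 50.8 RPKM in the DMH (limma adjusted p = 0.238).

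Peptides of the dorsomedial and lateral hypothalamus ran the other way. Of 26 listed, 25 passed the filter (Vip did not). Of these, 16 were higher in the DMH, Parpbp, which is no peptide gene, counted among them, 0 were higher in the ARC and 9 did not pass the test. Over all genes tested the shares were 1.46% higher in the DMH and 1.33% higher in the ARC. The median difference of the list was -1.20, and 13 to 15 members were called without 1 library. This list was also chosen with earlier results known. Prlh, among the 9, stood at 4.19 RPKM in both nuclei, a difference of 0 in fed and in fasted libraries. A gene without reads also holds a fixed value in this table, so that level is not read as expression. Hcrt (ENSMUSG00000045471, chromosome 11, 100761069 to 100762931) gave 3.74, 1.74, 1.33, 1.996 and 2.05 RPKM in the ARC and 446, 169.9, 222, 48.8 and 49.6 RPKM in the DMH (-5.44 ± 0.38, limma adjusted p = 1.64e-12). The DMH libraries differed among themselves by 9.12-fold, and the lowest of them was still 13.1-fold above the highest ARC library. For replicates 1 to 3 the value that stands for 0 reads is known, and there the ARC libraries held 3, 3 and 1 reads of Hcrt and the DMH libraries 779, 762 and 756 reads, like numbers although their RPKM differed. Npvf (ENSMUSG00000029831, chromosome 6, 50650672 to 50654439) was read at 2.53, 1.31, 1.34, 1.42 and 1.45 RPKM in the ARC and 52.5, 132, 135, 121 and 72 RPKM in the DMH (-5.24 ± 0.29, limma adjusted p = 2.74e-15). In batch 1, where its no-read value is 2.53 RPKM, ARC replicate 1 held 0 reads of Npvf and DMH replicate 1 held 77.

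Pmch (ENSMUSG00000035383, chromosome 10, 88091072 to 88092375) had the largest difference of all genes tested, with 5.06, 6.52, 2.23, 1.26 and 1.49 RPKM in the ARC and 1003, 307, 277, 294 and 219.7 RPKM in the DMH (-6.53 ± 0.45, limma adjusted p = 8.35e-13). DMH replicate 1 stood above the other four, and without it the difference was -6.16 (limma adjusted p = 4.77e-12). Pmch is reported as uncertain in size, since 58.1% of its exon length overlaps Parpbp, a gene on the opposite strand, and the reads carry no strand. Parpbp itself gave 1.17, 1.54, 1.43, 0.749 and 0.594 RPKM in the ARC and 535, 101, 107, 97.8 and 67.3 RPKM in the DMH, with the same library highest, and reads of the overlapping pair cannot be told apart. In the other fed nuclei Hcrt averaged 2.299 ± 0.886 RPKM in the ventromedial hypothalamus (VMH, n = 6) and 1.697 ± 0.474 RPKM in the paraventricular nucleus (PVN, n = 6), and Npvf 2.502 ± 1.08 and 1.82 ± 0.776 RPKM, with no test made of these nuclei.

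The other DMH-high peptides showed smaller differences. Trh, the thyrotropin-releasing hormone gene, was read at 9.49, 11.4, 7.56, 9.23 and 13.03 RPKM in the ARC and 59.4, 41.8, 42.8, 42.2 and 60.02 RPKM in the DMH (-2.17 ± 0.38, limma adjusted p = 0.000515). Grp, gastrin-releasing peptide, gave 3.02, 1.02, 2.97, 1.81 and 1.69 RPKM in the ARC and 19.97, 21.2, 12.9, 13.05 and 15.7 RPKM in the DMH (-2.52 ± 0.38). Nts, the neurotensin gene, was higher in the DMH by a difference of -2.01 ± 0.44, and Penk, the enkephalin precursor, by -1.20 ± 0.22, both without overlap. Gal, the galanin gene, was abundant in both nuclei, with 128, 89.7, 71.4, 65.96 and 96.1 RPKM in the ARC and 299, 209, 168, 196 and 176 RPKM in the DMH, and its groups did not overlap (-1.22 ± 0.37, limma adjusted p = 0.094), though the call was lost in 9 of the 10 fits without 1 library. Cck, cholecystokinin, gave 64.1, 5.31, 16.6, 5.12 and 3.36 RPKM in the ARC and 42.8, 63, 68.2, 26.4 and 57.1 RPKM in the DMH. ARC replicate 1 lay inside the DMH range for Cck, the pooled difference was -2.13 ± 0.50 (limma adjusted p = 0.0128), and within batch 1 it turned to 0.57 in favour of the ARC. Ppp1r17, an inhibitor of protein phosphatase, separated without overlap (15.3 ± 6.34 against 49.6 ± 8.097 RPKM). Cbln1 and Cbln2, secreted organisers of synapses, were higher in the DMH by differences of -1.36 ± 0.29 and -2.43 ± 0.32. Tac1, Nmb and Pdyn did not pass the test, at ARC and DMH means of 33.3 against 57.9, 9.74 against 4.07 and 51.95 against 45.99 RPKM.

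Promoter sequences are shown for the 3 genes most enriched in the ARC and the 3 most enriched in the DMH that have a RefSeq entry, Parpbp left aside for its overlap with Pmch, so that the start regions of these peptide genes and of Crabp1 can be compared. Each line holds the 120 bases before the annotated start, 5′ to 3′ in the direction of the gene, taken from RefSeq on GRCm38.p6. Capitals mark TATAAA, the core of the TATA box, and AGGTCA, the core sequence that nuclear receptors bind, each searched on both strands. The regions are chr12:3954825-3954944 (plus strand) for Pomc, chr6:49822590-49822709 (plus strand) for Npy, chr9:54764628-54764747 (plus strand) for Crabp1, chr10:88090952-88091071 (plus strand) for Pmch, chr11:100762932-100763051 (minus strand) for Hcrt and chr6:50654446-50654565 (minus strand) for Npvf.
Pomc: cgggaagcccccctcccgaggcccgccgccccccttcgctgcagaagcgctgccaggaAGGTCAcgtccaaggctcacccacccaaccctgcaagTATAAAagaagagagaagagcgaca
Npy: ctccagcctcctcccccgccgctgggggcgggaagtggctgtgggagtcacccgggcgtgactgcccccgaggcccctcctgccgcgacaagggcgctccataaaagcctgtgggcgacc
Crabp1: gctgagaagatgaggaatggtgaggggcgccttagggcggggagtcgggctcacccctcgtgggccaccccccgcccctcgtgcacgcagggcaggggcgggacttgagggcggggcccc
Pmch: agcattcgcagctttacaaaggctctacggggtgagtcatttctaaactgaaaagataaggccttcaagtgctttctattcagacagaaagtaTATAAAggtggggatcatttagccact
Hcrt: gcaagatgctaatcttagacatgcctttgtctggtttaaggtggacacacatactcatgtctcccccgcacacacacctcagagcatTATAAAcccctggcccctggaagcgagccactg
Npvf: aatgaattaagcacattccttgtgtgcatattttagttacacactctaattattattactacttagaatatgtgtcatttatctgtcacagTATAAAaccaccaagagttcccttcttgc

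TATAAA was found in the promoters of Pomc, Pmch, Hcrt and Npvf, 25 to 33 bases before the start, and not in those of Npy and Crabp1. Over 250 bases before the start, 12.4% of 32851 promoters held it, as did 7.91% of 455 promoters of ARC-high genes and 9.66% of 466 promoters of DMH-high genes, beside 10.02% of 19184 promoters of all genes tested. AGGTCA, found once in the Pomc promoter, was present in 14.02% of all promoters, in 9.89% of ARC-high and in 11.8% of DMH-high promoters, beside 12.1% of those of genes tested. GGTGTGA, the sequence that T-box factors such as Tbx3 bind, was in 3.33% of all promoters, 3.08% of ARC-high and 2.36% of DMH-high promoters, beside 3.20% of those of genes tested. CCCNNGGGA, the site read by EBF factors such as Ebf3, was in 5.60%, 5.49% and 7.08% of the same sets, beside 6.42% of those of genes tested. A match is a description of the letters, and nothing was drawn from it about a factor.

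Hypothalamic transcription factors divided between the nuclei. Of 111 listed, 100 passed the filter, 13 were higher in the ARC and 16 in the DMH, beside 1.33% and 1.46% over all genes tested. Tbx3 (ENSMUSG00000018604, chromosome 5, 119670669 to 119684724), a T-box factor of ARC neurons, led the ARC side with 38.1, 36.9, 28.3, 24.4 and 27.9 RPKM against 1.94, 1.54, 0.522, 1.36 and 2.68 RPKM in the DMH (3.66 ± 0.25, limma adjusted p = 6.09e-13). The homeobox factors Six6 (6.47 ± 1.44 against 0.629 ± 0.231 RPKM, 2.19 ± 0.20) and Six3 (7.35 ± 1.26 against 1.45 ± 0.477 RPKM, 1.78 ± 0.24), which pattern the ventral forebrain, separated without overlap. Isl1, a LIM factor of Pomc and Agrp neurons, was higher in the ARC by 1.06 ± 0.27, at 18.3, 21.1, 14.4, 18.4 and 13.5 RPKM against 8.79, 7.04, 6.01, 7.24 and 9.24 RPKM in the DMH. Pou2f2, a POU factor, was higher by 1.54 ± 0.24.

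Ebf3 (ENSMUSG00000010476, chromosome 7, 137193673 to 137314445) led the DMH side. It was read at 0.409, 0.22, 0.313, 0.639 and 0.303 RPKM in the ARC and 18.2, 18.02, 14.6, 11.6 and 13.7 RPKM in the DMH (-3.55 ± 0.19, limma adjusted p = 2.74e-15), and averaged 0.669 ± 0.416 RPKM in the fed VMH and 48.8 ± 6.19 RPKM in the fed PVN. Nr2f2, the orphan nuclear receptor COUP-TFII, gave 0.933, 0.938, 0.565, 1.07 and 1.48 RPKM in the ARC and 8.46, 12.6, 13.1, 13.4 and 9.75 RPKM in the DMH (-2.64 ± 0.15, limma adjusted p = 3.97e-15), beside 25.7 ± 3.32 RPKM in the VMH and 4.91 ± 1.07 RPKM in the PVN. The stem cell factor Sox2 (3.25 ± 1.22 against 9.19 ± 3.66 RPKM), the zinc finger factor Bcl11a and the homeobox factors Hmx3, Onecut2 and Lhx9 were also higher in the DMH, by differences of -1.24 ± 0.30, -1.02 ± 0.18, -0.90 ± 0.15, -0.92 ± 0.19 and -0.72 ± 0.15. The PVN factors Sim1 (0.261 against 1.58 RPKM, -1.01 ± 0.14) and Pou3f2 (1.26 against 3.19 RPKM, -0.88 ± 0.24) were higher in the DMH, although the Pou3f2 call was lost in 3 of the 10 fits without 1 library. The homeobox factors Bsx, Rax and Lhx1 had ARC and DMH means of 23.9 against 16.1, 1.07 against 0.909 and 3.44 against 2.48 RPKM and did not pass the test.

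**Figure D3:**
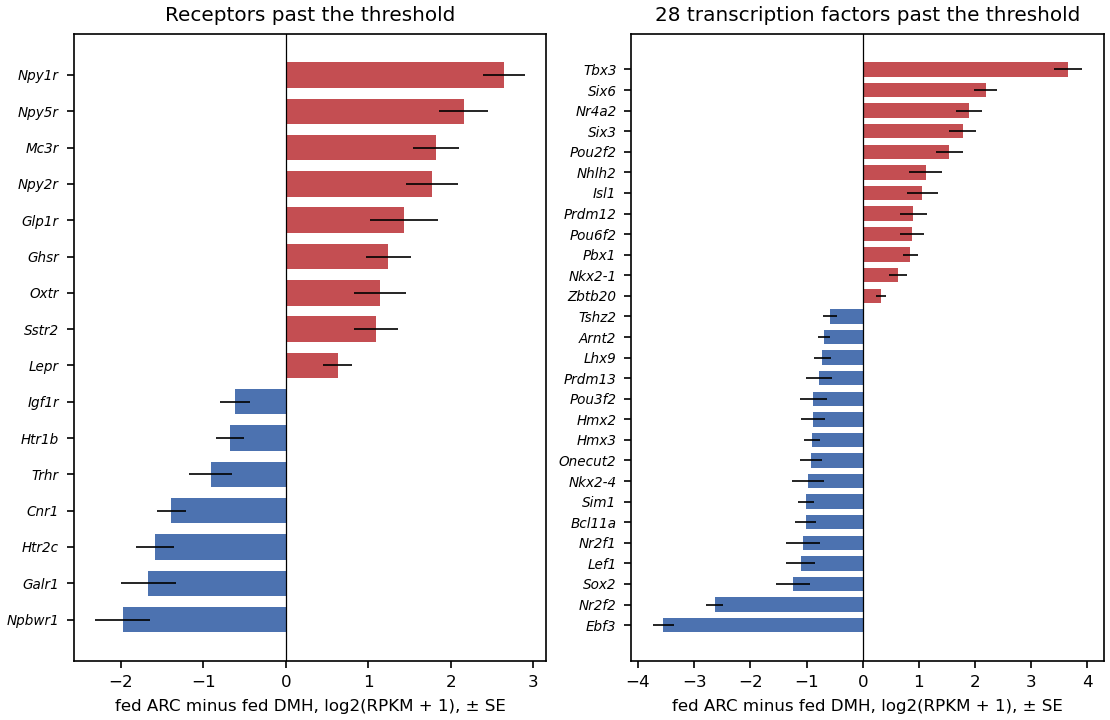
Differences between fed ARC and fed DMH (horizontal axes, log2(RPKM + 1), ARC minus DMH, bars with the SE of the fit) for the 16 receptors of feeding and stress signals (left) and 28 of the 29 transcription factors (right) past the threshold. Npy1r and Tbx3 are the longest bars towards the ARC, and Npbwr1 and Ebf3 the longest towards the DMH. Tshz2 is uncertain, since 67.5% of its exon length overlaps another gene model.

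Nuclear receptors and the handling of their ligands were counted in a pair of lists, beside 1.33% higher in the ARC and 1.46% higher in the DMH over all genes tested. Of 37 steroid, thyroid and retinoid receptors tested, 6 were higher in the ARC and 5 in the DMH, with Rarb, among the former, uncertain since 38.4% of its exon length overlaps Top2b. Nr5a2, known as LRH-1, was read at 10.3, 11.9, 9.08, 11.01 and 6.05 RPKM in the ARC and 0.325, 0.347, 1.13, 0.874 and 0.988 RPKM in the DMH (2.62 ± 0.35, limma adjusted p = 4.91e-06). The thyroid hormone receptor Thrb was higher in the ARC (15.4 ± 3.395 against 6.91 ± 1.75 RPKM, 1.05 ± 0.17). The circadian receptors Rorb (12.1 ± 3.002 against 29.4 ± 2.15 RPKM, -1.25 ± 0.18) and Rora (-0.70 ± 0.15) and the neural stem cell receptor Nr2e1 (-1.68 ± 0.31) were higher in the DMH. Of 17 retinoid and thyroid hormone handling genes tested, 5 were higher in the ARC and 0 in the DMH. Besides Crabp1 these were the retinol carrier Rbp4 (7.26 ± 2.495 against 1.26 ± 0.514 RPKM), the retinoic acid hydroxylase Cyp26b1 (2.29 ± 1.26 against 0.327 ± 0.122 RPKM), the retinol acyltransferase Lrat (1.57 ± 1.13 against 0.243 ± 0.0484 RPKM) and Dio2, which activates thyroid hormone (9.44, 4.78, 5.67, 6.17 and 6.73 RPKM against 0.674, 0.7995, 1.88, 1.55 and 0.6699 RPKM, 1.85 ± 0.28, limma adjusted p = 4.55e-05). Lrat and Cyp26b1 were low in both nuclei. The enzymes Aldh1a1, Aldh1a2 and Rdh10, which make retinoic acid, did not pass the test, at means of 13.8 against 8.76, 0.526 against 0.759 and 3.07 against 2.47 RPKM.

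Receptors for feeding and stress signals, a list that holds those described above, were called in both directions. Of 63 tested, 9 were higher in the ARC and 7 in the DMH, beside 1.33% and 1.46% over all genes tested, with a median difference of -0.01. Without DMH replicate 1 the ARC-high count of this list was 6. Some of the DMH-high peptides had a receptor that was higher in the same nucleus, among them the galanin receptor Galr1 (2.6, 0.465, 0.554, 0.391 and 0.708 RPKM in the ARC and 2.23, 5.48, 4.21, 6.82 and 6.34 RPKM in the DMH; -1.67 ± 0.33, limma adjusted p = 0.00208) and the thyrotropin-releasing hormone receptor Trhr (3.61 ± 1.73 against 7.37 ± 2.02 RPKM, -0.91 ± 0.26, limma adjusted p = 0.0621). Both overlapped between the nuclei, in Galr1 through ARC replicate 1, where the sign within batch 1 turned (0.16), and the Trhr call was lost in 6 of the 10 fits without 1 library. The receptor genes Grpr, Ntsr1, Ntsr2, Cckar, Cckbr, Oprm1, Oprd1, Npffr1 and Crhr1 of other DMH-high peptides did not pass the test. Neither did Galr2 and Trhr2. Sstr2, a somatostatin receptor, was higher in the ARC beside its ligand (6.88 ± 1.39 against 2.697 ± 0.655 RPKM, 1.09 ± 0.26), while Sstr1, Sstr3 and Sstr4 did not pass the test. Npbwr1, a receptor for neuropeptides B and W, was higher in the DMH (5.66, 1.96, 0.833, 1.22 and 2.22 RPKM in the ARC and 18.6, 8.41, 13, 10.5 and 7.22 RPKM in the DMH, -1.98 ± 0.33). The neuropeptide W gene Npw was low in both nuclei and overlapped, at 1.82 against 2.67 RPKM (-0.34 ± 0.08, limma adjusted p = 0.00841). The cannabinoid receptor Cnr1 was also higher in the DMH (6.13, 4.12, 3.85, 5.896 and 6.68 RPKM in the ARC and 15.2, 13.3, 14.9, 17.7 and 15.6 RPKM in the DMH, -1.39 ± 0.17, limma adjusted p = 1.29e-06). The melanin-concentrating hormone receptor Mchr1 and the hypocretin receptors Hcrtr1 and Hcrtr2 had means of 5.89 against 4.47, 0.709 against 1.18 and 4.82 against 2.69 RPKM in ARC and DMH and did not pass the test. The relaxin receptor Rxfp1 (ENSMUSG00000034009, chromosome 3, 79641611 to 79737880), outside that list, was among the largest ARC-high differences, at 12.5, 17.4, 17.01, 19.4 and 9.93 RPKM in the ARC and 2.19, 0.637, 0.671, 1.02 and 0.631 RPKM in the DMH (3.02 ± 0.24, limma adjusted p = 6.04e-11).

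Transmitter genes were higher in the DMH or did not pass the test. Shares over all genes tested were 1.33% higher in the ARC and 1.46% higher in the DMH. Of 12 GABA, glutamate and acetylcholine neuron genes tested (16 listed), 4 were higher in the DMH and 0 in the ARC, among them the histamine enzyme Hdc (1.69 ± 1.2 against 7.58 ± 1.39 RPKM, -1.79 ± 0.24), the vesicular glutamate transporter Slc17a6 (28 ± 3.87 against 47.5 ± 8.701 RPKM, -0.73 ± 0.18) and Nos1, nitric oxide synthase (6.05 ± 0.747 against 9.26 ± 1.42 RPKM), whose call was lost in 6 of the 10 fits without 1 library. Gad1 and Gad2, which make GABA, had means of 27.2 against 28.1 and 149.7 against 218 RPKM and did not pass the test. The GABA-A receptor subunits were unequal: of 17 tested, 5 were higher in the DMH and 2 in the ARC, and the ARC count was 1 without ARC replicate 1, 3 or 5 or DMH replicate 1, 2 or 4. Gabrb2, the beta2 subunit, gave 4.15, 8.59, 5.14, 5.502 and 7.79 RPKM in the ARC and 13.3, 17.1, 17.8, 21.5 and 17.6 RPKM in the DMH (-1.37 ± 0.16, limma adjusted p = 3.27e-07). The epsilon subunit Gabre was higher in the ARC (79.98, 57.7, 59.6, 64.5 and 56.7 RPKM against 26.9, 23.4, 29.5, 26.8 and 25.7 RPKM, 1.23 ± 0.27). Of 25 glutamate receptor genes, 6 were higher in the DMH, led by Grm3 (-1.64 ± 0.26) and Grin3a (-1.32 ± 0.14), and Gria4 was higher in the ARC (0.57 ± 0.14).

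Ion channels and adhesion molecules were counted by family, beside 1.33% higher in the ARC and 1.46% higher in the DMH over all genes tested. No set test was made, and the counts describe single members rather than whole families. Of 87 potassium channel genes, 3 were higher in the ARC, led by Kcna5 (12.2 ± 3.48 against 4.21 ± 0.923 RPKM, 1.32 ± 0.28) and Kcnk2 (0.94 ± 0.19), and 4 in the DMH (2 without ARC replicate 2 or DMH replicate 3), led by Kcnn2 (-1.06 ± 0.25) and Kcnc4 (-0.96 ± 0.23). Of 20 ephrin and Eph receptor genes, 6 Eph receptors were higher in the DMH, among them Ephb1 (1.91 ± 1.25 against 7.14 ± 1.35 RPKM, -1.58 ± 0.19) and Epha4 (6.27 ± 0.6701 against 17.2 ± 3.19 RPKM, -1.32 ± 0.14), while the ligand Efnb2 was higher in the ARC (15.5 ± 3.16 against 7.89 ± 3.63 RPKM, 0.996 ± 0.255), a call lost without replicate 1 of either nucleus. Of 11 protocadherins outside the gene clusters, 4 were higher in the ARC, led by Pcdh7 (57.3 ± 4.69 against 20.9 ± 2.001 RPKM, 1.42 ± 0.13) and Pcdh20 (12.2 ± 5.43 against 3.93 ± 1.03 RPKM, 1.35 ± 0.22), and 2 in the DMH (1 without replicate 4 or 5 of either nucleus), led by Pcdh18 (-1.06 ± 0.24). Of 17 classical cadherins, 2 were higher in the ARC, Cdh9 (0.99 ± 0.30, a call lost in 7 of the 10 fits without 1 library, all but those without ARC replicate 2 and DMH replicates 2 and 3) and Cdh4 (0.98 ± 0.18). Of 31 semaphorin and plexin genes, 2 were higher in the ARC (Plxna2 and Plxnc1, each lost in 2 of the 10 fits) and 1 in the DMH (Sema3c, lost in 6). Of 28 imprinted genes tested, Asb4 (107 ± 14.9 against 52.2 ± 4.65 RPKM, 1.02 ± 0.25), Plagl1 (0.99 ± 0.25) and Grb10 (0.33 ± 0.08) were higher in the ARC and Meg3 (-0.51 ± 0.11) and Igf2 (-1.23 ± 0.31) in the DMH. Igf2 is uncertain, since 64.5% of its exon length overlaps another gene model.

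The rest of the largest differences on the ARC side were Tnfaip8l3, a carrier of phosphoinositides (38.8 ± 12.9 against 5.51 ± 2.17 RPKM, 2.63 ± 0.29), Vgll3, a cofactor of TEAD factors (10.7 ± 2.76 against 0.972 ± 0.445 RPKM, 2.56 ± 0.27), the coregulator Cited1 (89.5 ± 10.5 against 16.4 ± 3.23 RPKM, 2.39 ± 0.24) and Creb3l1, a transcription factor anchored in the endoplasmic reticulum (15.1 ± 6.498 against 2.18 ± 0.439 RPKM, 2.26 ± 0.38). On the DMH side they were Tmem114, a membrane protein of the claudin family (1.58, 2.38, 1.45, 1.19 and 1.65 RPKM in the ARC and 37.5, 12.1, 11.8, 7.09 and 7.67 RPKM in the DMH; -2.37 ± 0.31), Nrn1, the neurite growth factor neuritin (1.599 ± 1.28 against 12.1 ± 5.005 RPKM, -2.35 ± 0.30), and Gpr50, an orphan receptor related to the melatonin receptors. Gpr50 was read at 11.6, 8.77, 7.58, 8.49 and 15.98 RPKM in the ARC and 47.9, 57.04, 59.6, 47.3 and 60.5 RPKM in the DMH (-2.31 ± 0.34, limma adjusted p = 3.25e-05), and averaged 1.24 ± 1.05 RPKM in the VMH and 1.17 ± 0.934 RPKM in the PVN. Lack of overlap was a condition for choosing these genes. The calls of the 12 genes chosen by size in each direction held in each of the 10 fits that left out 1 library. Their choice by size in the same libraries makes this likely, so it is no separate support.

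Markers of other cell types and of neighbouring regions were counted beside these results. The shares over all genes tested, 1.33% higher in the ARC and 1.46% higher in the DMH, stand beside each count. Tanycytes line the ventricle beside the ARC, and of 17 of their markers 6 were higher in the ARC and 1, Gpr50, in the DMH. Dio2, Col23a1 (5.11 ± 2.01 against 0.969 ± 0.234 RPKM) and Scn7a (7.5 ± 2.03 against 2.22 ± 0.676 RPKM) were the largest, whereas Rax, a defining tanycyte factor, averaged 1.07 against 0.909 RPKM in ARC and DMH and did not pass the test. The summed tanycyte markers were 82.8 to 105 RPKM in the ARC and 89.95 to 107 RPKM in the DMH, and the ranges overlapped. Without Gpr50, a choice made after seeing the data, the other 16 markers summed to 74.1 to 93.6 RPKM in the ARC and 42.02 to 52.5 RPKM in the DMH, with no overlap. Of 15 microglia markers 3 were higher in the ARC and 0 in the DMH, and the ARC count was 1 without ARC replicate 3, 4 or 5 or DMH replicate 1 or 5. They were led by C1qc (1.08 ± 0.32, lost in 7 of the 10 fits without 1 library) and Ctss (45.5 ± 4.91 against 27.9 ± 7.74 RPKM, 0.72 ± 0.15), and the sums, 181 to 237 RPKM in the ARC and 110.1 to 154 RPKM in the DMH, did not overlap. Of 18 astrocyte markers 4 were higher in the DMH (2 without ARC replicate 2), led by Agt (28.6 ± 6.24 against 52.99 ± 4.66 RPKM, -0.89 ± 0.20) and Gja1 (20.3 ± 4.11 against 35.5 ± 9.44 RPKM, -0.75 ± 0.19), with sums of 762 to 849.7 against 929 to 1099.6 RPKM, which did not overlap. The astrocyte differences were negative in 14 markers and positive in 4. Gfap had the largest and leaned to the ARC, at 9.97 against 3.95 RPKM (1.10 ± 0.34, limma adjusted p = 0.10015), just short of the threshold. Without ARC replicate 5 or DMH replicate 4, 1 astrocyte marker was called higher in the ARC. Of 14 oligodendrocyte markers 3 were higher in the DMH (1 without ARC replicate 1, 2 or 4), all of them myelin genes, with Mobp at 9.85 ± 2.398 against 20.5 ± 4.32 RPKM (-0.99 ± 0.26) and sums of 132 to 189.9 against 178 to 269 RPKM. Of 18 endothelial and pericyte markers 4 were higher in the DMH (2 without ARC replicate 1, 2 or 5 or DMH replicate 4 or 5), led by Cldn5 (2.77 ± 1.901 against 7.59 ± 1.63 RPKM, -1.31 ± 0.33), with sums of 108 to 134 against 125 to 180.4 RPKM. Of 16 neuron markers 2, Syt1 (-0.57 ± 0.07) and Stmn2 (-0.34 ± 0.10), were higher in the DMH, and Stmn2 was lost in 7 of the 10 fits without 1 library. How far these cell type shares carry any gene difference was not tested.

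Region markers checked the captured tissue against its label. The counts below stand beside shares of 1.33% higher in the ARC and 1.46% higher in the DMH over all genes tested. The ARC libraries held the defining ARC genes Pomc, Npy and Agrp at the levels above, and the DMH libraries held Npvf and Ppp1r17, made by DMH neurons, together with Pmch and Hcrt of the lateral hypothalamic area. The defining VMH genes Nr5a1 and Fezf1 had means of 0.442 against 0.577 and 1.09 against 2.73 RPKM in ARC and DMH, and 1 of 12 VMH markers was higher in each nucleus, Rreb1 in the ARC (0.85 ± 0.18) and Adcyap1 in the DMH (-1.29 ± 0.29). Of 10 PVN markers 5 were higher in the DMH, namely Trh, Ntng1, Sim1, Pou3f2 and Crh, and the count was 3 without ARC replicate 1 or 3. The Crh call was lost in 5 of the 10 fits without 1 library (adjusted p up to 0.233). The vasopressin gene Avp was higher in the ARC (43.6, 14.7, 31.7, 30.3 and 6.36 RPKM against 4.502, 4.71, 10.5, 6.44 and 5.899 RPKM, with overlap, 1.63 ± 0.36). In the fed PVN itself Sim1 averaged 19.1 ± 3.29 RPKM and Avp 2113 ± 678 RPKM. Of the 3 mammillary markers tested, Nkx2-4 was higher in the DMH (-0.97 ± 0.28), and of 8 thalamic markers Lef1 (-1.10 ± 0.25) and Rora were. The 8 pars tuberalis and pituitary markers, the 8 oligodendrocyte precursor, 6 choroid plexus and 5 blood markers had 0 called genes each. Of 10 ependymal markers 1 was higher in each nucleus, Rsph1 in the ARC (1.55 ± 0.45) and Hdc in the DMH, 1 of 7 meningeal markers (Igf2) was higher in the DMH, and of 16 immediate-early genes Egr1 (-1.15 ± 0.26) and Egr2 (-1.11 ± 0.33) were. Without 1 library the calls of Egr2, Rsph1 and Nkx2-4 were lost in 7, 6 and 5 of the 10 fits, and 1 pars tuberalis marker was called without ARC replicate 1, 2 or 4. Within batch 1 alone the sign of Rreb1 and of Egr1 turned, to -0.05 and 0.10.

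**Figure D4:**
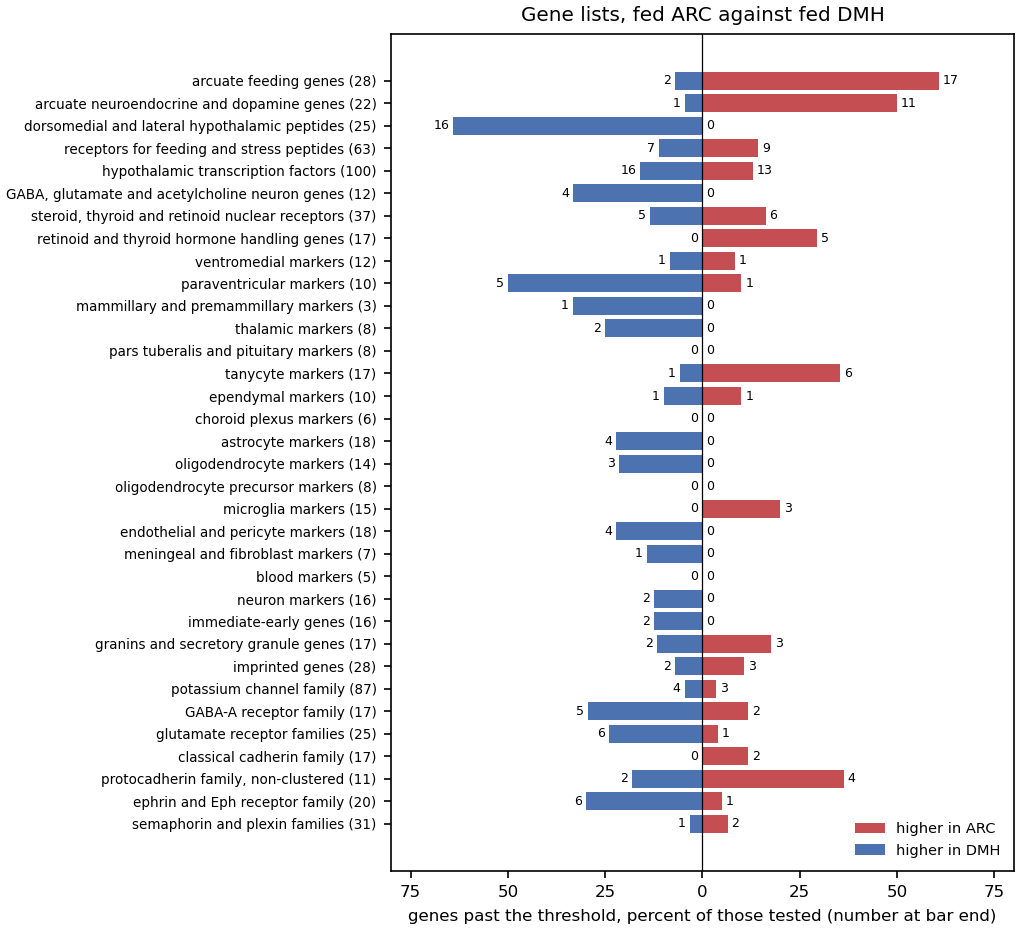
Share of the tested genes of each list that was past the threshold (horizontal axis, percent; red bars to the right higher in fed ARC, blue bars to the left higher in fed DMH); numbers at the bar ends are genes, and the number tested is in parentheses after the list. The 2 ARC lists point right, with 17 of 28 and 11 of 22, and the dorsomedial and lateral peptides point left, with 16 of 25, beside 1.33% and 1.46% over all genes. All lists were chosen with earlier results of these data known, so the counts are no separate support.

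The same contrast was then read in fasted mice, whose 5 ARC and 4 DMH libraries enter the fed contrast only through the shared estimate of spread. There 1077 genes (3.21%) were past the threshold, 438 (1.3%) higher in the ARC and 639 (1.9%) higher in the DMH. Of the 936 genes called in fed mice, 860 had the same sign in fasted mice, 480 were called again in the same direction and 0 were called in the opposite one. By direction, 233 of 447 ARC-high genes (52.1%; 53.2% of the 438 fasted calls) and 247 of 489 DMH-high genes (50.5%; 38.7% of the 639 fasted calls) were called in both. Both sets share the fit, and its estimate of spread per gene, with the other libraries of the series.

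The leading genes separated the nuclei again in the fasted libraries. Crabp1 gave 296, 275, 239, 203 and 236 RPKM in fasted ARC and 3.35, 12.3, 2.02 and 5.69 RPKM in fasted DMH (5.41 ± 0.33, limma adjusted p = 3.59e-14). Hcrt gave 3.58, 1.89, 1.101, 2.46 and 1.54 RPKM in fasted ARC and 187, 127, 94.7 and 204 RPKM in fasted DMH (-5.62 ± 0.41, limma adjusted p = 3.36e-12). For Npy the fasted levels were 1104, 603, 591, 1428 and 841 RPKM in the ARC and 17.05, 18.1, 5.601 and 17.7 RPKM in the DMH, each ARC library above every fed ARC library, and the difference between the nuclei was 5.91 ± 0.47. Agrp reached 351, 403, 341, 597 and 352 RPKM in fasted ARC (6.38 ± 0.35). Of the list counts, 15 of the 17 ARC-high feeding genes, 10 of the 11 ARC-high neuroendocrine genes and 14 of the 16 DMH-high members of the peptide list, both Pmch and Parpbp counted, were called in the same direction in fasted mice. Cartpt was not (0.77 ± 0.31, limma adjusted p = 0.269), and neither were Nhlh2, Pgr, Nms and Npw.

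**Figure D5:**
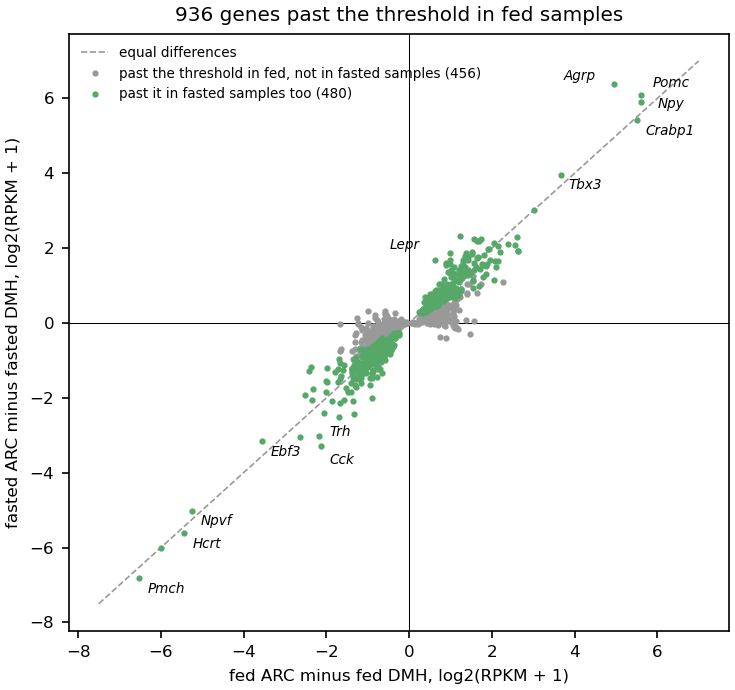
For the 936 genes past the threshold in fed mice, the difference in fasted mice (vertical axis) against that in fed mice (horizontal axis), both ARC minus DMH on the log2(RPKM + 1) scale; green points are the 480 genes also past the threshold in fasted mice, grey points the other 456, and the dashed line marks equal differences. The 2 contrasts share no library, and green points lie only in the lower left and upper right, where both differences have the same sign.

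No gene passed the test that the ARC to DMH difference itself depended on nutritional state. In that test of (fed ARC minus fed DMH) minus (fasted ARC minus fasted DMH) 0 of 33579 genes (0%) were called by limma, 1497 had an unadjusted p under 0.05, and the lowest adjusted p was 0.442. Of the named genes Lepr had the lowest adjusted p: the fasted ARC libraries held 14.01, 9.03, 5.799, 9.34 and 7.25 RPKM and the fasted DMH libraries 2.3, 1.42, 1.92 and 2.52 RPKM, a difference of 1.69 ± 0.19 against 0.63 ± 0.17 in fed mice, and the difference between them gave an adjusted p of 0.797. For Ghsr the fasted difference was 2.33 ± 0.29 and the adjusted p of the comparison 0.977. The 4 fasted DMH libraries held 4.78 to 13.2 M reads, and none of them was in batch 1. Leaving out 1 library at a time gave 0 to 4 called genes, the most, Olfr1406, Lsmem1, Gm6788 and Gm13238, without fasted DMH replicate 2, all of them genes named after their values were seen.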

How the data were processed

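RNA of laser-captured nuclei was amplified (Ovation RNA-Seq System V2) and sequenced without strand. According to the submitters' processing notes the tools were CASAVA 1.7, TopHat2 2.0.11, Cufflinks 2.2.1, edgeR and limma, on GRCm38. The authors deposited 1 table of RPKM for 37907 gene IDs and 42 libraries, of which 36049 IDs matched a symbol. Its values were checked: it holds no zeros, since a prior count had been added, and the mean of each gene had been made equal between 3 batches of 10, 16 and 16 libraries, recognised here by values that recur within a batch. Depth was estimated from the value of genes with no reads, and precision is limited by it at low RPKM. Because batches were equalised over unequal sets of nuclei (batch 1 held 2 ARC, 1 DMH, 3 PVN and 4 VMH libraries), values of replicate 1 of a nucleus-restricted gene can be scaled against the other replicates, equally in ARC and DMH.

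From the deposited RPKM, log2(RPKM + 1) of 33579 genes (RPKM of at least 1 in at least 4 libraries) was fitted with limma 3.58.1 (R 4.3.3), with 8 group means over all 42 libraries, 34 residual degrees of freedom, an intensity trend and Benjamini-Hochberg adjustment, and a threshold of 0.1. A gene without reads can pass this filter, since the median no-read value was 1.60 RPKM. Fold differences on this scale understate the change of low genes. Per the study's methods, libraries that stood apart on a multidimensional scaling plot were left out of its analysis, which can narrow the spread within a group. The code was tested on simulated data. Named were all members of the 3 peptide lists, the 12 protein-coding genes with the largest difference in each direction among called genes that did not overlap and averaged at least 5 RPKM, and the largest called members of each other list, with any further member needed to describe a list. Genes with over 25% of exon length in another gene were treated as uncertain. Members and lists were chosen with earlier results of these data known. Some genes are not reported here.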

Additional observations from a re-analysis of the deposited data

Results flagged for a closer look

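Among the 12 genes with the largest difference in each direction, 6 of 48 groups of 5 libraries held 1 library far from the other four, with a gap of more than 0.71 of the group's range, and chance alone marks about 1 group in 20. All 6 were replicate 1, and 5 of them were DMH replicate 1. Pmch read 1003 RPKM in DMH replicate 1 beside 219.7 to 307 RPKM in the others, and Parpbp, which shares reads with it, 535 RPKM beside 67.3 to 107 RPKM. Cbln2 read 32.3 RPKM there beside 10.4 to 14.1 RPKM, Tmem114 37.5 RPKM beside 7.09 to 12.1 RPKM, and Rxfp1, an ARC-high gene, 2.19 RPKM beside 0.631 to 1.02 RPKM. Npvf read 2.53 RPKM in ARC replicate 1 beside 1.31 to 1.45 RPKM, and that value is the one a gene with 0 reads has in batch 1. The part of the batch adjustment in these values was not tested. All 24 genes stayed past the threshold without replicate 1 of either nucleus, which is no separate support, since they were chosen by size and lack of overlap in these libraries.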

How the results depend on the processing

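The fed count of 936 genes was 826 to 1058 under both other pseudocounts, both other filters, quantile normalization, median centring, array weights, no intensity trend, batch or depth as a covariate, and without genes at 1 value in all libraries, of which the last 3 settings were chosen after seeing the data. Fitting only the libraries compared gave 615 genes in fed mice (291 of them lower in the ARC) and 541 in fasted mice. A minimum difference of 1 on the log2 scale left 268 fed genes (137 higher and 131 lower in the ARC) and 300 fasted genes. Leaving out 1 library gave 749 to 924 fed genes, 355 to 452 higher and 382 to 516 lower in the ARC, 864 to 1049 fasted genes, and 0 to 4 genes for the difference between fed and fasted contrasts.

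The labels do not match libraries to mice, and same-numbered fed libraries share a batch as read from the values. The number was therefore not taken as a pair in the main fit. Same-numbered libraries of ARC and DMH did not deviate together (Pearson's r across genes -0.082 to 0.014 in fed mice). That value cannot decide whether they share a mouse. It covers all genes that vary, low ones included, and gene means had been made equal between batches. A replicate block by number was fitted on only the libraries compared. It called 147 fed genes (86 higher and 61 lower in the ARC), 50 fasted genes and 1 gene for the difference, Sinhcaf. With the block but without genes at 1 value the counts were 275 (160 and 115), 118 and 1. Without the block, the same libraries alone gave 615 fed genes, 541 fasted genes and 0 for the difference.

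Of 4734 re-computed values of the 176 called genes that were named, 4053 were kept. In a fit, this means the same direction and call. Within a batch, where no test was made, it means the same direction and a shift smaller than the spread. Another 583 kept direction and lost the call, 93 within-batch values moved by more than the spread, and 5 turned. Those 5 were all within batch 1: Rreb1 to -0.0465, Igf1r to 0.0463, Egr1 to 0.10, Galr1 to 0.16 and Cck to 0.57, of which the cause was not tested. For the 12 largest genes in each direction, chosen by size in the same libraries, 318 of 324 and 314 of 324 values were kept by the same rule. Without 1 library 126 of the 176 calls held in every fit. Low depth limits genes near the no-read value, where a difference is understated.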
